A study of Mus musculus with 6 samples.

Results

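The genes described here are the 9 members of the SoxD, SoxE and SoxF subgroups of Sox transcription factor genes, with 3 genes in each subgroup. They were taken by name from the deposited mRNA table, which has 23235 rows, and every member has 1 row. SoxD comprises Sox5, Sox6 and Sox13, SoxE comprises Sox8, Sox9 and Sox10, and SoxF comprises Sox7, Sox17 and Sox18. The study compared mRNA of pluripotent mouse ESCs with that of cells it calls neuronal cells (NCs). ESCs of the E14Tg2a line at passages 37 to 40 were kept with leukemia inhibitory factor (LIF) and gave 3 samples. NCs were made from the same line by 48 h in 1 μM retinoic acid (RA) without LIF and gave the other 3 samples. All samples come from a single cell line, and each sample combined the RNA of 2 plates of 60 mm. The table holds 1 FPKM value per gene and condition (sequenced fragments per kilobase of transcript, corrected for library size). It stands for the 3 samples of a condition together, as an authors' value. No value of a single sample was used here, so no SD, n or test accompanies any value, and every difference is a description of these pooled values without a replicate check.

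Sox proteins bind DNA through the HMG box, a domain that sits in the minor groove and bends the helix. SoxD proteins carry a coiled coil through which they pair with each other, lack a known activation domain of their own, and act beside SoxE proteins in cartilage and glia. SoxE proteins are activators best known from neural crest, glia, cartilage and testis, and SoxF proteins from endoderm and the lining of blood and lymph vessels. RA enters the nucleus bound to carrier proteins and activates receptors that sit on DNA, and it drives pluripotent cells out of self-renewal.

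The labels were checked against marker genes first. Here and below, a gene was called higher or lower when its NC to ESC ratio passed 2-fold and its mean FPKM over both conditions was at least 0.5. All 5 ESC markers were lower in NCs, with Pou5f1 at 832 FPKM in ESCs against 37.1 in NCs and Nanog at 224 and 13.8 FPKM. All 5 RA response markers were higher, with Cyp26a1, an RA-degrading enzyme, at 0.874 and 215 FPKM and Crabp2, an RA carrier, at 18.3 and 950 FPKM. A list of 7 genes of mature or young neurons, added after other values had been seen, went against the name of the NCs, since 0 were higher, 4 lower, 2 within and 1 below the filter. The gene below the filter, Dcx, a marker of young neurons, was higher in NCs, at 0.0140 and 0.334 FPKM. Tubb3 read 33.4 FPKM in ESCs against 7.54 in NCs, and Stmn2 142 and 11.8 FPKM. The name NCs is therefore used here for the RA-treated condition only.

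The HMG box is what places these genes in 1 family, and its coding sequence is shown because it is the region in which RNA-seq reads of the members could be hardest to tell apart. The lines give the first 60 bases of the box of each member, read 5′ to 3′ on the coding strand from GENCODE M21 transcripts on GRCm38 (mm10). Capitals mark the 29 bases that are identical in all 9 genes.
Sox5: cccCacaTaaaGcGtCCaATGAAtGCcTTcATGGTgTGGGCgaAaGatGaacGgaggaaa
Sox6: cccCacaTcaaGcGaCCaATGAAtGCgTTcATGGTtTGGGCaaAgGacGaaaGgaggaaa
Sox13: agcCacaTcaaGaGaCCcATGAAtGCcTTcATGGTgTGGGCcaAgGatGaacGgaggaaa
Sox8: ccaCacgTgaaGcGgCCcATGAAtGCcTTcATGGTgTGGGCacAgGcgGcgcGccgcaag
Sox9: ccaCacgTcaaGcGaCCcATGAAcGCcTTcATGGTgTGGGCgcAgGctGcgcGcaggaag
Sox10: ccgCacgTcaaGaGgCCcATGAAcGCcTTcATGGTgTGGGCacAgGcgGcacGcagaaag
Sox7: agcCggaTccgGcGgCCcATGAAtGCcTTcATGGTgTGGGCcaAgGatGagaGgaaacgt
Sox17: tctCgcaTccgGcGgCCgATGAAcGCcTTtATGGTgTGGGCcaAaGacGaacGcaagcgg
Sox18: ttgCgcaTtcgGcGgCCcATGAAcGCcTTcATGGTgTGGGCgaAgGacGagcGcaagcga
Over the whole box of 79 codons, 86 of 237 bases were identical in all 9 members. The identity was 76.8 to 85.2% in the 9 pairs within a subgroup and 53.2 to 75.1% in the 27 pairs between subgroups. SoxE and SoxF boxes shared 65.4 to 75.1% of their bases, whereas SoxD boxes shared 53.2 to 61.2% with SoxE and 53.6 to 60.8% with SoxF. For each member, 1 transcript was searched, that with the longest coding sequence. The longest exact run shared by these transcripts of a pair, in or outside the box, was 44 bases, between Sox9 and Sox10. Over the searched transcripts, 50-base words shared with transcripts of another gene made up 0.306% of the words of Sox5 and 0.0615% of those of Sox7. None were found in the searched transcripts of the other 7 members. Read in the sense direction, stretches of 50 bases are thus unique to 1 gene over nearly all of each searched transcript. Sequence found only in other transcripts was not searched. This matters most for Sox6, whose searched transcript has 2903 bases against 8668 in its longest coding transcript. Words of the opposite strand were not searched, and overlaps with genes on that strand are given below.

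**Figure D1:**
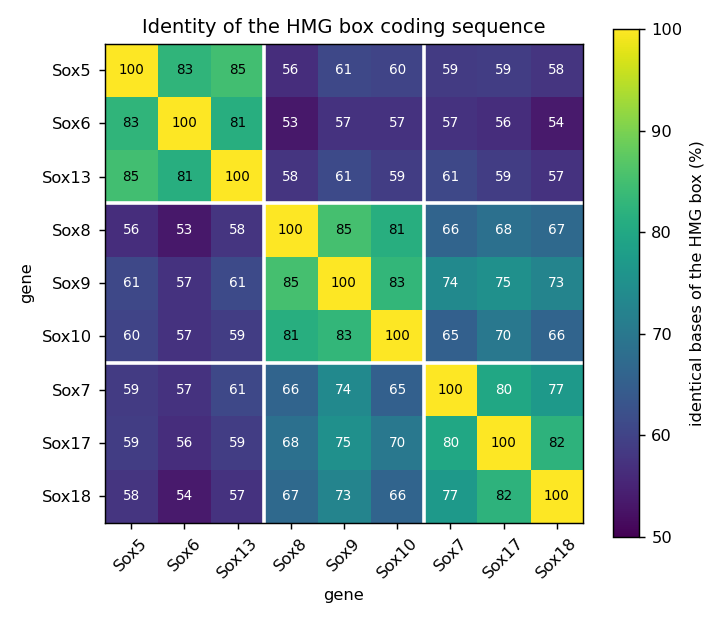
Percent of identical bases between the HMG box coding sequences of each pair of the 9 members, with white lines between subgroups. Pairs within a subgroup lie between 76.8 and 85.2%, and pairs between subgroups between 53.2 and 75.1%.

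All 9 members had a higher FPKM in NCs than in ESCs. Of the 9 members, 8 passed the filter on the mean FPKM, 7 of them were higher by at least 2-fold, Sox10 was within 2-fold, and 0 were lower. Among the 13955 rows that passed the filter, 12.6% were higher by at least 2-fold, 10.7% were lower by at least 2-fold, and 48.3% were higher by any amount. The median log2 ratio was 1.75 over all 9 members and -0.03 over the rows that passed. Of all called rows, 54.1% were higher, and this share was 70.9% when each column was divided by its own sum. That division added 0.29 to every log2 ratio and brought Sox10 past the limit at 1.04. In bulk RNA, a change in the number of cells that express a gene and a change in RNA per cell cannot be told apart.

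The levels were low except for Sox13. In ESCs 3 members reached 1 FPKM (Sox13, Sox18 and Sox10), and in NCs 8 members did, all but Sox5. Only Sox13 reached 5 FPKM in NCs. From highest to lowest, the order in ESCs was Sox13, Sox18, Sox10, Sox17, Sox7, Sox8, Sox9, Sox6 and Sox5. In NCs it was Sox13, Sox18, Sox17, Sox9, Sox6, Sox10, Sox7, Sox8 and Sox5. Sox13 and Sox18 led and Sox5 came last in both. Neighbours such as Sox6 and Sox10 in NCs, at 1.99 and 1.95 FPKM, cannot be ordered without a spread between samples.

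**Figure D2:**
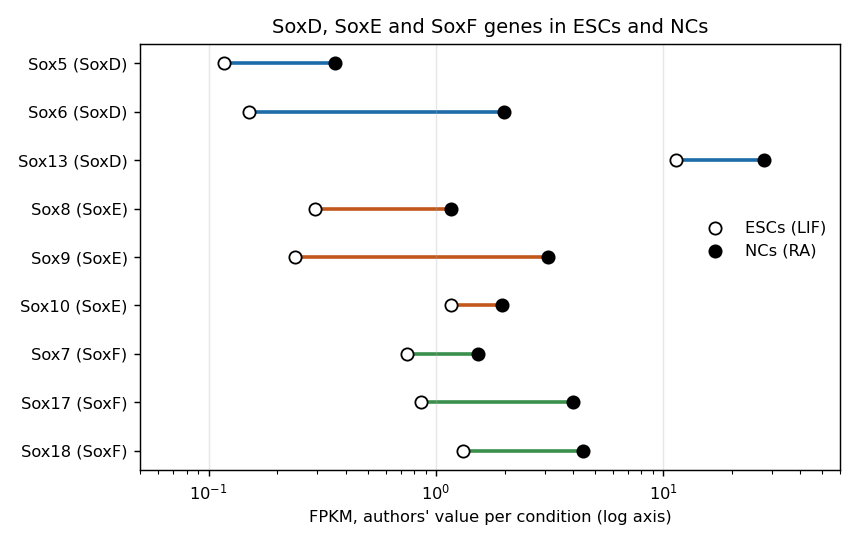
FPKM of the 9 members in ESCs (open circles) and NCs (filled circles) on a log axis, 1 authors' value per condition, with lines coloured by subgroup. Every filled circle lies to the right of its open circle, and only Sox13 is above 5 FPKM.

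Within SoxD, the 3 genes differed widely in level. Sox13 codes for a protein known as an autoantigen in diabetes and from T cells. Its row read 11.3 FPKM in ESCs against 27.6 in NCs, a ratio of 2.43 and a log2 ratio of 1.28. This exceeded 72.3% of all rows in ESCs and 85.8% in NCs. Sox6 acts in cartilage, muscle and red blood cells. Its FPKM was 0.150 in ESCs and 1.99 in NCs, and its log2 ratio was 3.73, the largest of the members without a pseudocount. With pseudocounts of 0.1 and 1 FPKM it was 3.06 and 1.38, below Sox9 at 3.25 and 1.73, and with the latter also below Sox17 at 1.42. The value without a pseudocount exceeded the log2 ratios of 98.2% of the rows that passed the filter. Sox5, its close partner in cartilage and in neurons of the cortex, read 0.117 FPKM in ESCs against 0.358 in NCs. Its log2 ratio was 1.61, but its mean of 0.238 FPKM was below the filter, so it was not called. The 3 genes summed to 11.6 FPKM in ESCs against 29.9 in NCs, and Sox13 made up most of both sums.

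SoxE held another steep ratio, that of Sox9, and the single member within the limit. Sox9, required for cartilage and testis and present in neural stem cells, read 0.239 FPKM in ESCs against 3.12 in NCs. Its log2 ratio was 3.70, close to that of Sox6. Sox8, a paralog whose roles overlap those of Sox9 and Sox10, read 0.293 FPKM in ESCs against 1.17 in NCs, with a log2 ratio of 2.00. Sox10, a regulator of neural crest, glia and pigment cells, had the highest SoxE level in ESCs at 1.16 FPKM and read 1.95 FPKM in NCs. Its log2 ratio of 0.75 was the smallest of the 9. The leading SoxE gene was therefore Sox10 in ESCs and Sox9 in NCs. The sum over SoxE was 1.69 FPKM in ESCs against 6.23 in NCs.

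In SoxF all 3 genes passed the limit, Sox7 barely. Sox17, a regulator of definitive and primitive endoderm and of arteries, read 0.861 FPKM in ESCs against 3.996 in NCs, with a log2 ratio of 2.21. Sox18, which acts in blood and lymph vessels, read 1.31 FPKM in ESCs against 4.43 in NCs, with a log2 ratio of 1.75. Sox7, present in primitive endoderm and early blood and vessel precursors, read 0.741 FPKM in ESCs against 1.52 in NCs. Its log2 ratio of 1.04 was the one nearest above the limit, and that of Sox10 at 0.75 the nearest below. The SoxF sum was 2.91 FPKM in ESCs against 9.95 in NCs.

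**Figure D3:**
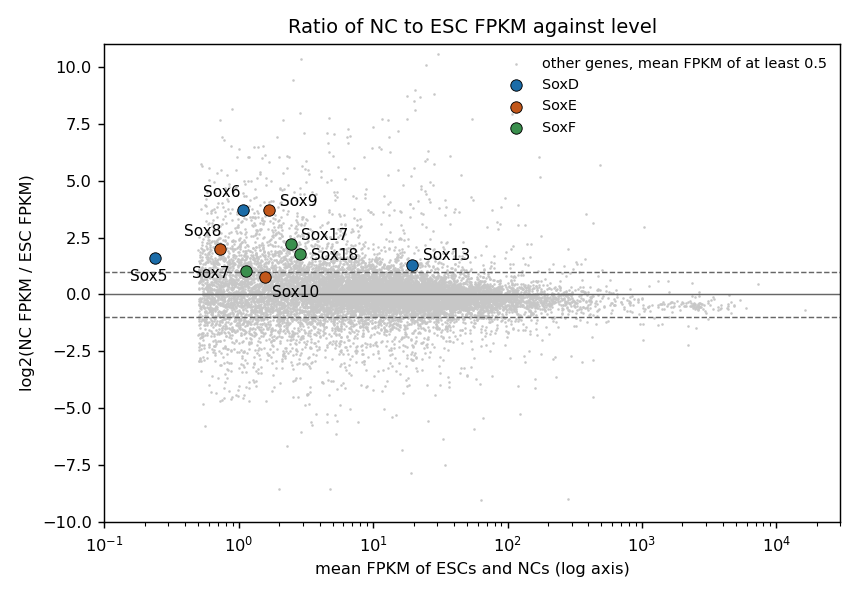
Log2 ratio of NC to ESC FPKM against the mean FPKM on a log axis, with genes of mean FPKM of at least 0.5 that are above 0 in both conditions in grey and the members coloured by subgroup. Dashed lines mark the limit of 2-fold, and all 9 members lie above 0, with Sox10 below the upper dashed line and Sox5 left of the filter.

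The depth behind these values was estimated from the lowest FPKM values, since the files do not give the total per sample. A floor of 3 fragments lay below all 18 member values, and the value nearest to it, Sox5 in ESCs, was 4.36 times its floor. Depending on which transcript was used for the length, the ESC value of Sox5 stood for 13.1 to 60 fragments and that of Sox8 for 15.5 to 59.5. The NC value of Sox13 stood for 3351 to 7128 fragments. These estimates cover counting only and not the spread between samples.

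The members lie on 8 chromosomes and their genes differ greatly in size (GENCODE M21 on GRCm38). Sox5 spans 954 kb at chr6:143828425-144781977 and Sox6 568 kb at chr7:115470872-116038796, both on the minus strand and with 15 and 17 exons. Sox13 spans 42.1 kb at chr1:133382303-133424377 on the minus strand, and Sox17 spans 6.42 kb on the same chromosome and strand at chr1:4490931-4497354. Among the SoxE genes, Sox9 lies at chr11:112782224-112787760 on the plus strand, Sox8 at chr17:25565892-25570686 and Sox10 at chr15:79154908-79165240, both on the minus strand. Sox7 lies at chr14:63943673-63950732 on the plus strand and Sox18 at chr2:181669836-181671640 on the minus strand, each with 2 exons. The printed stretch of the box lies within a single coding exon in each member.

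Annotated neighbours overlap 4 of the members. The antisense RNA 2810468N07Rik shares 329 exonic bases with Sox8, and its row read 2.16 FPKM in ESCs against 3.21 in NCs, above Sox8 in both. Gm37587 shares 804 exonic bases with Sox17 on the opposite strand, and Sox5os1 shares 69 with Sox5. The strand setting of the counting was not given in the sources used here, so reads of such pairs cannot be told apart, and the values of Sox8, Sox17 and Sox5 are uncertain to that extent. The overlaps with Sox6 share no exonic base.

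RefSeq promoter windows (GRCm38.p6) were found for 4 members, 1 each for Sox13, Sox5 and Sox8 and 6 for Sox6, and none was found for Sox9, Sox10, Sox7, Sox17 and Sox18. A window covers the 250 bases before an annotated start. The sequences compare the member with the highest FPKM (Sox13), the lowest (Sox5), the one whose antisense neighbour has a row in the table (Sox8) and the second of the Sox6 windows, counted from the most upstream start. Capitals mark matches, on either strand, to the motifs AGGTCA, its variant GGGTCA, the variant GGTTCA and the variant AGTTCA, which RA receptors bind when paired. They also mark the Sox motif ACAAAG, the Sox motif ACAATG, the CCAAT box, the GC box GGGCGG and the TATA box TATAAA. No match overlapped another. They lie at chr1:133424213-133424462, chr6:143947107-143947356, chr17:25570687-25570936 and chr7:116031048-116031297, all read on the minus strand.
Sox13: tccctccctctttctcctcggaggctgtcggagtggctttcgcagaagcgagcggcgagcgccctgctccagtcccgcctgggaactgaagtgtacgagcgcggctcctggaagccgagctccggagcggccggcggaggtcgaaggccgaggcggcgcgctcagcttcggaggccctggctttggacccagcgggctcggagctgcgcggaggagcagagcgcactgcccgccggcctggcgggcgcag
Sox5: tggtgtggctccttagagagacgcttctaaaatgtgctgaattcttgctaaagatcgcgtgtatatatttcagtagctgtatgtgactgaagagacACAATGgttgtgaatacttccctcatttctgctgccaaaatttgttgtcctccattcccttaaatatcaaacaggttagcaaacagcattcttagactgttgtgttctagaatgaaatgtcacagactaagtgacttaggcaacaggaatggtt
Sox8: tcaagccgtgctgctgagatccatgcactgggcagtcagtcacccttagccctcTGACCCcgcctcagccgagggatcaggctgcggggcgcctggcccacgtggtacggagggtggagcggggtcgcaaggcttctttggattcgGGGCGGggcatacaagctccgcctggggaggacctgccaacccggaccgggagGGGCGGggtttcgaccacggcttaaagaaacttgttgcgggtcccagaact
Sox6: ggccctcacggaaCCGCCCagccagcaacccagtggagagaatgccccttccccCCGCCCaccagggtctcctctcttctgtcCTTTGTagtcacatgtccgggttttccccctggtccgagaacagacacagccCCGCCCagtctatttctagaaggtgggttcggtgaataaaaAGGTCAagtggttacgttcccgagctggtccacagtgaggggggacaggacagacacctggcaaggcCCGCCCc
The Sox13 window was 72.4% GC with an observed to expected CpG ratio of 0.951, above that of 91.6% of the 32851 promoter windows in the table, whose median ratio was 0.373. The Sox5 window, which starts inside the gene, was 39.6% GC with a ratio of 0.308. The Sox8 window had a ratio of 0.676. Any of the RA receptor motifs was present in 3 of the 9 member windows and in 38.6% of all windows, and either Sox motif in 6 of 9 and in 25.2%. Apart from the Sox5 window, the windows with a Sox motif all belong to Sox6, so that count mostly repeats 1 gene. AGGTCA occurred in 2 member windows, both of Sox6, and in 14% of all windows. GGGTCA occurred in the Sox8 window and in 11.6% of all. GGTTCA occurred, as did AGTTCA, in the fourth Sox6 window and in 8.85% and 11.8% of all. ACAAAG was found in 16.5% of all windows, ACAATG in 10.7%, CCAAT in 33.8%, GGGCGG in 32.7% and TATAAA in 12.4%. The Sox13 window held none of these. The 6 Sox6 windows belong to a single gene, and the FPKM does not say which start was used.

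Set against the whole Sox family, the 3 subgroups took a larger share in NCs, as did SoxC, while the share of SoxB1 fell. The table held 19 Sox genes. The summed FPKM of the 9 members was 16.2 in ESCs and 46.1 in NCs, a ratio of 2.84, while the sum over all Sox genes was 345 in ESCs and 272 in NCs. The members thus made up 4.70% of the Sox FPKM in ESCs and 16.9% in NCs. Without Sox13 they summed to 4.88 and 18.5 FPKM, a ratio of 3.80. Sox13 alone made up 69.9% of the 9-member sum in ESCs and 59.8% in NCs. SoxB1 genes, which include the pluripotency factor Sox2, summed to 264 FPKM in ESCs against 118 in NCs, and SoxC genes to 42.6 and 103 FPKM. The share of SoxB1 went from 76.6% to 43.3%, and that of SoxC from 12.3% to 37.9%. Sox2 alone read 258 and 74.1 FPKM, so all shares depend on its fall as well as on the values of the members.

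Of the 10 other Sox genes, 8 passed the filter, and 4 were higher, 2 lower and 2 within the limit, with a median log2 ratio of 0.79. Sox2 read 258 FPKM in ESCs against 74.1 in NCs, and Sox15 read 19.7 and 1.90 FPKM. Sox1, a marker of the early neural plate, read 1.77 FPKM in ESCs against 21.8 in NCs, and Sox3 read 4.37 and 21.9 FPKM. Sox4 read 16.5 and 61.6 FPKM. In the order of ratios without a pseudocount over the 19 genes, Sox6 and Sox9 stood at the top, followed by Sox1 and Sox3, with Sox17 next and Sox10 at rank 13. Sox6 and Sox9 started from 0.150 and 0.239 FPKM in ESCs, and with a pseudocount of 0.1 or 1 FPKM Sox1 stands above both. Sox1 and Sox3 in NCs were thus above every member but Sox13 in level.

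**Figure D4:**
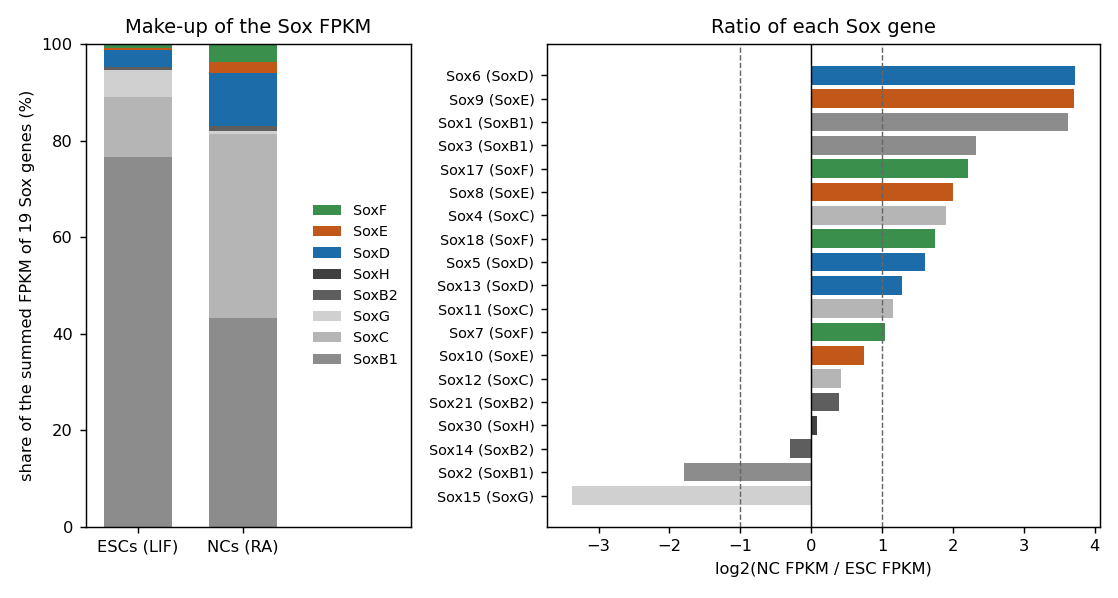
Left, share of the summed FPKM of the 19 Sox genes by subgroup in ESCs and NCs; right, log2 ratio of each Sox gene, with dashed lines at 2-fold. SoxD, SoxE and SoxF together go from 4.70% to 16.9%, and Sox6 and Sox9 have the largest ratios when no pseudocount is added.

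Genes that are known to work with or downstream of the members differed between lists. Of the 14 neural crest factors, 13 passed the filter, and 10 were higher, 1 lower and 2 within, with a median log2 ratio of 3.03. Ednrb, an endothelin receptor of crest cells, read 0.120 FPKM in ESCs against 19.9 in NCs, and the factors Twist1 and Snai1 read 1.76 and 14.4, and 2.20 and 10.4 FPKM. Zic1, Msx1 and Tfap2b were at or under 0.12 FPKM in ESCs and at 4.68, 5.75 and 3 FPKM in NCs. Foxd3, named after its value was seen as the exception, was lower, at 4.70 and 0.334 FPKM.

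Of the 10 chondrocyte genes, 3 of the 8 that passed were higher and 1 lower, with a median log2 ratio of 0.25. Col2a1, the cartilage collagen that Sox9, Sox5 and Sox6 activate, read 3.46 FPKM in ESCs against 28.6 in NCs. Col11a1 read 1.23 and 3.87 FPKM and Hapln1 0.0621 and 1.62 FPKM. Col9a2 read 7.07 and 6.98 FPKM, and Matn1 was lower, at 0.976 and 0.132 FPKM. Among 7 Sertoli cell genes, 3 passed and 1 was higher, Wt1, at 2.42 FPKM in ESCs against 20.5 in NCs.

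The glial and melanocyte lists, which hold known targets and partners of Sox10, differed from the crest list. Of 13 glial genes, 7 passed, and 1 was higher, 2 lower and 4 within, with a median log2 ratio of 0.31. Gfap, the gene that was higher, read 0.354 FPKM in ESCs against 0.745 in NCs, whereas Erbb3, a receptor gene of Schwann cell precursors, was lower at 8.29 and 2.89 FPKM. Olig2 and S100b, named after their values were seen, were under 0.05 FPKM in both. Of 5 melanocyte genes, 3 passed and 2 were lower, with a median of -1.08. Mitf, a target of Sox10, read 1.73 and 0.818 FPKM, and Pmel read 12.6 and 2.33 FPKM.

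Of 13 endoderm factors, 10 passed, and 5 were higher, 1 lower and 4 within, with a median log2 ratio of 0.68. Foxa1 and Foxa2, pioneer factors of endoderm that also mark the floor plate, read 0.227 and 8.02 FPKM, and 0.617 and 5.24 FPKM. Gata6, a primitive endoderm factor, read 2.37 and 5.48 FPKM, while Hnf4a was lower at 1.21 and 0.430 FPKM. Of 15 extraembryonic endoderm genes, 12 passed, and 6 were higher, 1 lower and 5 within, with a median of 0.69. Plat, coding for tissue plasminogen activator, read 1.56 FPKM in ESCs against 24.2 in NCs, and Col4a1 read 23.5 and 51.8 FPKM. Summed over the whole list, the level was 333 FPKM in ESCs against 444 in NCs. Col4a2, Pdgfra and, named after their values were seen, Dab2 and Cubn were also higher. Nid1, also named after its value was seen, was lower, at 20.97 FPKM in ESCs against 10.02 in NCs. Among the genes within the limit, Sparc read 142.3 and 181.2 FPKM, Lamc1 59.45 and 48.85 FPKM, and Lamb1 40.68 and 46.54 FPKM. Thbd, named in the same way, was below the filter and fell from 0.258 to 0.126 FPKM. Afp, likewise named after its value was seen, read 0.0161 FPKM in ESCs against 0.0871 in NCs, and Ttr 0.0848 against 0.526, both below the filter and higher in NCs. Whether cells of this type took part in the Sox17 and Sox7 values was not tested.

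Of 20 endothelial genes, 15 passed, and 5 were higher, 4 lower and 6 within, with a median log2 ratio of 0.04. Nrp1, a semaphorin and VEGF receptor also present on neurons, read 0.147 FPKM in ESCs against 40.6 in NCs, and Efnb2 read 5.02 and 14.6 FPKM. Pecam1, which ESCs also express, was lower at 24.7 and 2.79 FPKM, and so were Vwf at 2.38 and 0.178 FPKM and Cldn5 at 4.09 and 0.737 FPKM. Of genes named after their values were seen, the lymphatic factor Prox1 read 0.536 and 2.1 FPKM, the VEGF receptors Flt4 and Kdr 2.65 and 6.80 FPKM and 0.339 and 0.697 FPKM, and the cadherin Cdh5 0.291 and 0.297 FPKM. Prox1, Flt4 and Kdr were called higher, and Cdh5 was below the filter. The sum over the list was 90.9 FPKM in ESCs against 114.9 in NCs. The rise of Nrp1 alone was larger than that of the sum, so the other genes together summed to less in NCs. The part of endothelial cells in the SoxF values was not tested.

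**Figure D5:**
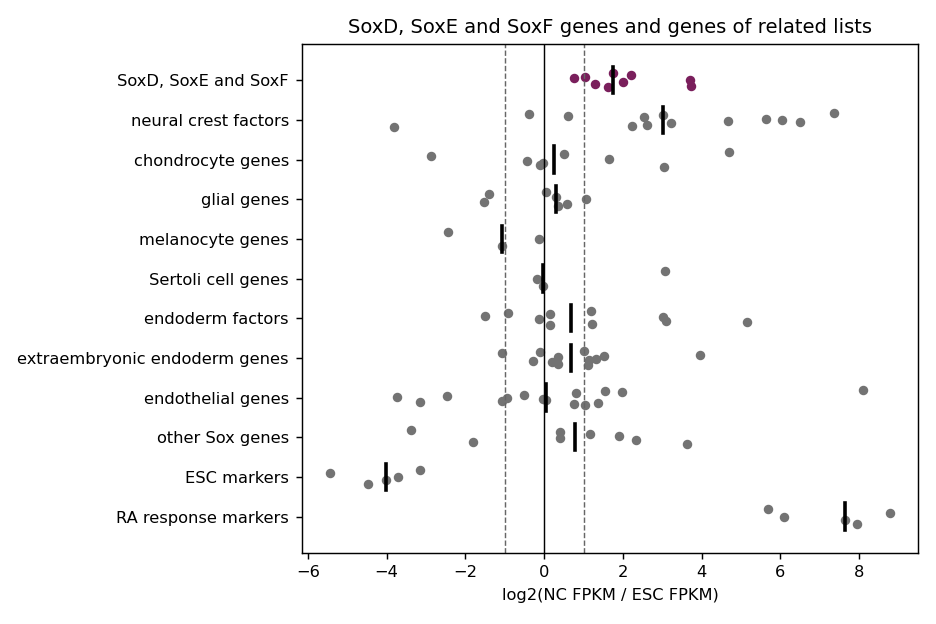
Log2 ratio of NC to ESC FPKM for all 9 members (top) and for the genes of 11 other lists with a mean FPKM of at least 0.5, with the median of each as a black bar and dashed lines at 2-fold. The median of the 9 members, which include Sox5 from below the filter, is 1.75. It lies below that of the neural crest factors (3.03). It lies above those of the other Sox genes (0.79), both endoderm lists (0.68 and 0.69) and the remaining tissue lists (-1.08 to 0.31). The RA response and ESC markers have medians of 7.64 and -4.02. Single genes of these lists reach beyond the members.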

How the data were processed

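RNA was measured in 3 ESC samples and 3 NC samples. The authors made TruSeq libraries, sequenced them on a HiSeq instrument, aligned reads to mm10 with TopHat2 (2.0.8), which calls Bowtie2 (2.1.0), assembled transcripts with Cufflinks 2.0.2 and Cuffmerge, and estimated expression with Cuffdiff, whose version was not given in the sources used here. The FPKM values were deposited by the authors, 1 per gene and condition, pooled over the 3 replicates. The heading of the NC column reads FPK and was taken as FPKM. The deposited table also holds the authors' log2 fold changes, a test statistic (score), p-values and q-values, which were not used. Depth per sample is unknown, and 1 value per condition allowed no test.

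Ratios were computed without a pseudocount among rows with a mean FPKM of at least 0.5, with a limit of 2-fold. Rows at 0 in 1 condition that passed the filter (74) were counted as past the limit. The value of 1 fragment was read from genes with 1 transcript, as FPKM times length. An assumed fragment length of 200 bases was first taken off the length. The value was the median of the fullest bin in a window of low values, set after the data were seen. Gene models came from GENCODE M21 and promoters from RefSeq. The members and the 14 gene lists were chosen with earlier results of these data known. Named were all members, in each list up to 4 genes with the highest FPKM and up to 4 with the largest ratio, and the 3 nearest rows to each member. The fold calls were tested on simulated data, and the sequence steps were not. Python 3.11.15, numpy 2.4.6, pandas 2.3.3 and matplotlib 3.10.9 were used. Alternatives were pseudocounts, filters, fold limits, centring and division by the column sum. Some results for genes within the naming rule are not reported here.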

Additional observations from a re-analysis of the deposited data

How the results depend on the processing

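Across the pseudocounts of 0.1 and 1 FPKM, the centring and the division by the column sum, all 36 log2 ratios of the members stayed above 0, between 0.28 and 4.02. Of the members, 7 were called higher, 6 with a pseudocount of 0.1, where Sox7 was at 0.95, 5 with a pseudocount of 1, 8 after division by the column sum, 8 without a filter, 6 with a filter at 1 FPKM, 8 at a limit of 1.5-fold and 3 at 4-fold. At 4-fold these were Sox6, Sox9 and Sox17. None was called lower under any of these settings. With a pseudocount of 1, Sox8, Sox10 and Sox7 were within the limit, at 0.75, 0.45 and 0.54, and Sox5 was at 0.28. The share of all rows called higher was 7.70% with a pseudocount of 1, 16.2% without a filter, 21.0% at 1.5-fold and 4.99% at 4-fold. In the same order, the share called lower was 6.98%, 13.2%, 19.4% and 3.65%. The moves with the pseudocount and the limits follow from those settings themselves. For the pseudocount of 0.1, the centring, the column sum and the filter at 1 FPKM, these shares are not given. The member counts under those settings therefore lack a background. Leaving out a replicate was not run, because the values are pooled over replicates, and no paired fit was made because no test was run. The depth limits the low values most, those of Sox5 and Sox8 in ESCs above all.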

Other observations

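By distance in log2 FPKM over the 2 conditions, the number of rows within 0.25 of a member was 5 for Sox9, 6 for Sox6, 18 for Sox13, 19 for Sox17, 25 for Sox18, 27 for Sox8, 54 for Sox7 and 67 for Sox10. The row nearest to Sox6 was 1810062G17Rik, followed by Dcn and Irx1, the latter at 0.153 FPKM in ESCs against 1.79 in NCs. Those nearest to Sox9 were Gm4858, Lmx1a and Lhx2, the last 2 being LIM homeobox genes, with Lmx1a at 0.218 and 3.06 FPKM. Sox17 lay nearest to Ehd2, Sox7 to Lama4, a basement membrane laminin gene at 0.742 and 1.53 FPKM, Sox18 to Rnf217, Sox8 to Slc7a10, Sox10 to Bmp6 and Sox13 to Pxdn, at 11.1 and 28.1 FPKM. With only 2 conditions, this is a likeness of a pair of values.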
